A study of Mus musculus with 13 samples.

Results

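Calcium transport genes of milk production were followed in mammary tumors of MMTV-tTA TetO-Tsg101 mice and in normal mammary glands. The list held 10 genes, chosen by symbol for their role in calcium entry, pumping, sensing and hormonal signaling, with earlier results of the same libraries known. The table of 15213 genes listed 9 of them, namely Trpv6, Orai1, Stim1, Stim2, Atp2b1, Atp2b2, Atp2c1, Atp2c2 and Pthlh. The calcium-sensing receptor Casr was not analysed here. The contrast of tumors with glands belonged to the choice of these genes, so their values in it are given as a description, with fitted changes and standard errors and without p-values.

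The RNA came from 10 mammary tumors with the genotype MtTA Teto-TSG101wt, taken from 6 mice, and from the mammary gland of 3 WT FVB mice. A single tumor was taken from 3 of the tumor-bearing mice, 2 tumors from each of 2 mice and 3 tumors from 1 mouse. In the tumor-bearing mice, the MMTV promoter drives the tetracycline-controlled transactivator tTA, which in the absence of doxycycline switches on a TetO-Tsg101-IRES-luciferase transgene in a mosaic pattern in the mammary epithelium. The glands carry neither transgene. The age of the mice and the reproductive stage of the glands were not given in the sources used here, and the labels name 2 sequencing sites without assigning libraries to them.

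The secretory cells of the lactating gland move calcium from blood into milk. Calcium enters through channels of the plasma membrane, among them ORAI1, which opens when the sensors STIM1 and STIM2 report that the endoplasmic reticulum is depleted. The pumps SPCA1 and SPCA2, encoded by Atp2c1 and Atp2c2, load the Golgi, and PMCA2, encoded by Atp2b2, exports calcium across the apical membrane into milk, whereas PMCA1, encoded by Atp2b1, is the widespread plasma membrane pump. Pthlh encodes parathyroid hormone-related protein, which the lactating gland releases to mobilize calcium from bone. Trpv6 encodes a highly calcium-selective channel best known from the absorbing epithelia of intestine and placenta.

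Fold changes are on the log2(normalized cpm + 1) scale, which understates the change of genes with low levels. Levels are given in normalized cpm, that is, read counts that the authors scaled by library with edgeR. Tumor libraries held 6176269 to 16835397 reads and gland libraries 11672487 to 23889042. The ribosomal transcript Rn45s took 0.456% to 27.4% of the tumor reads, most in tumor 9, and 0.296% to 4.35% of the gland reads. The tumors and glands overlapped in the epithelial marker score, the mean log2 level of 17 genes, with 6.81 to 7.64 in the tumors and 6.49 to 7.58 in the glands. Skeletal muscle transcripts were high in tumors 4 and 10, with scores of 8.39 and 5.87 against 0.453 to 2.08 in all other libraries. Tsg101 itself was at 66.5 ± 15.5 in the tumors and 53.2 ± 7.68 in the glands (SD, n = 10 and 3), which is a fitted log2 fold change of 0.30 with an adjusted p of 0.296 in limma. Gene counts do not separate the transgene from the endogenous gene.

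Trpv6 and Pthlh were higher in every tumor than in every gland, Atp2b2 was lower in every tumor, and Atp2c2 and Orai1 were lower in 9 of 10 tumors. Atp2b1 was higher in 9 of 10 tumors, by less than 2-fold, and the 2 sensors and Atp2c1 overlapped between tumors and glands. A filter on low values kept 8 of the 9 genes, of which 3 were past the threshold of an FDR below 0.05 and a change of more than 2-fold, Trpv6 and Pthlh as higher and Atp2c2 as lower. The same threshold called 17.2% of all 11795 genes that passed the filter, 10.2% as higher and 6.99% as lower. In the fit of all listed genes without the filter 5 of the 9 were past it, with Atp2b2 and Orai1 added as lower, beside 20.6% of all 15213 listed genes, 10.5% as higher and 10.1% as lower. Scaling moved this split, from 1204 higher and 825 lower genes to 848 and 1299 with the epithelial scaling and to 1864 and 495 without normalization factors. In 2 of the 9 genes all tumors lay above all glands and in 1 all tumors lay below, beside 11.4% and 10.3% of all listed genes and 10.7% and 8.53% of those past the filter. Trpv6 and Pthlh passed the filter only through the tumors.

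**Figure D1:**
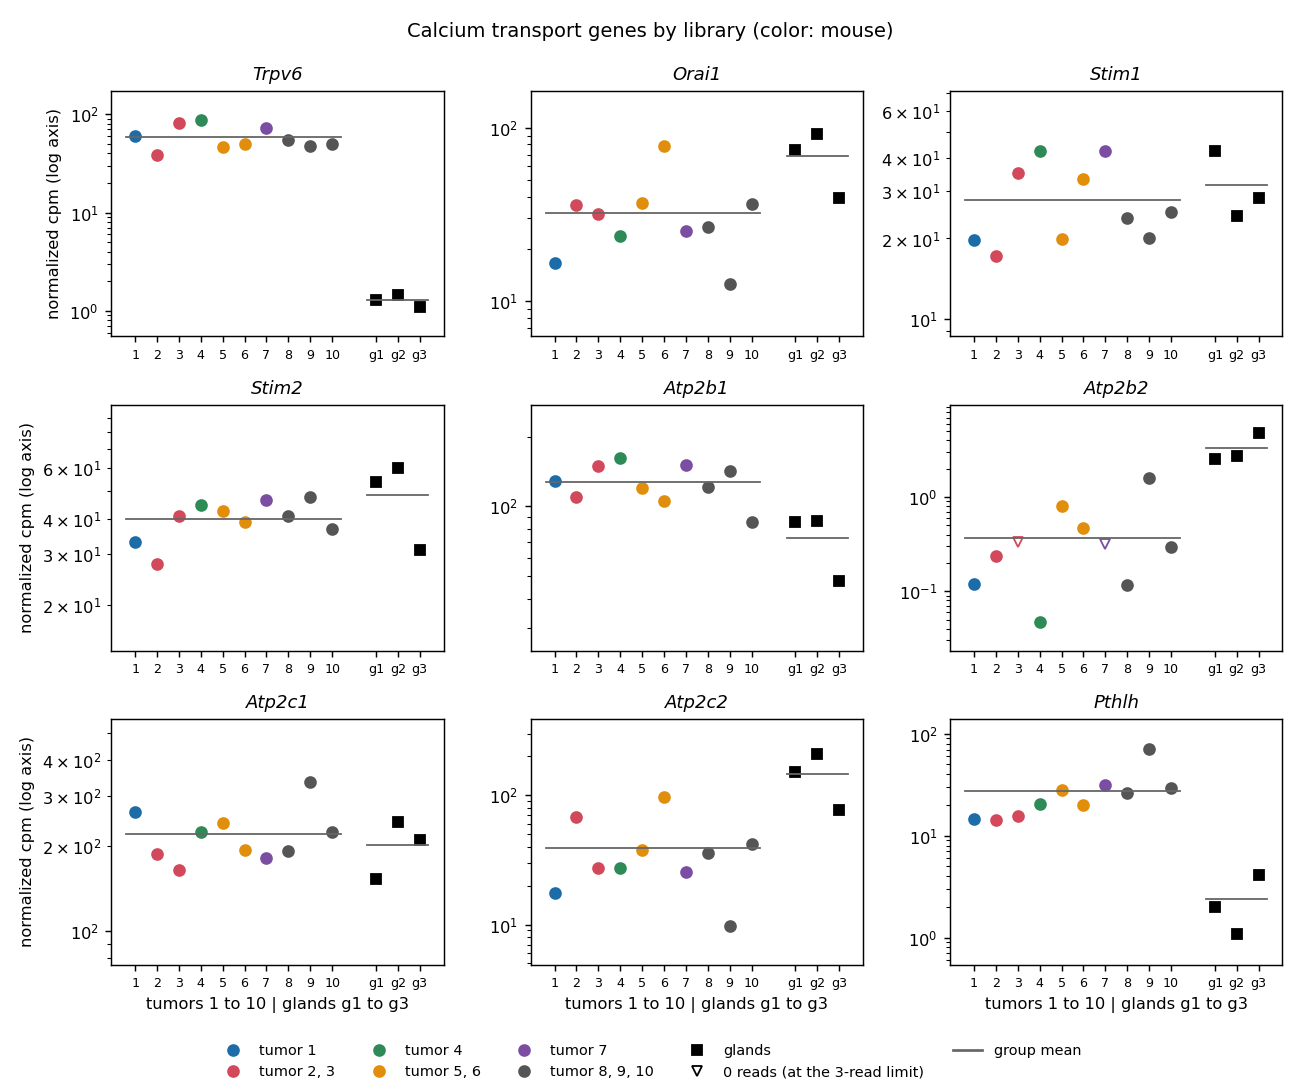
Level of the 9 calcium transport genes in each library, in normalized cpm on a log axis that differs between panels. Circles are tumors colored by mouse, squares are glands, horizontal lines are group means and open triangles mark libraries with 0 reads, drawn at the value of 3 reads. Trpv6 lies between 38.4 and 87.3 in the tumors and between 1.10 and 1.45 in the glands.

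**Figure D2:**
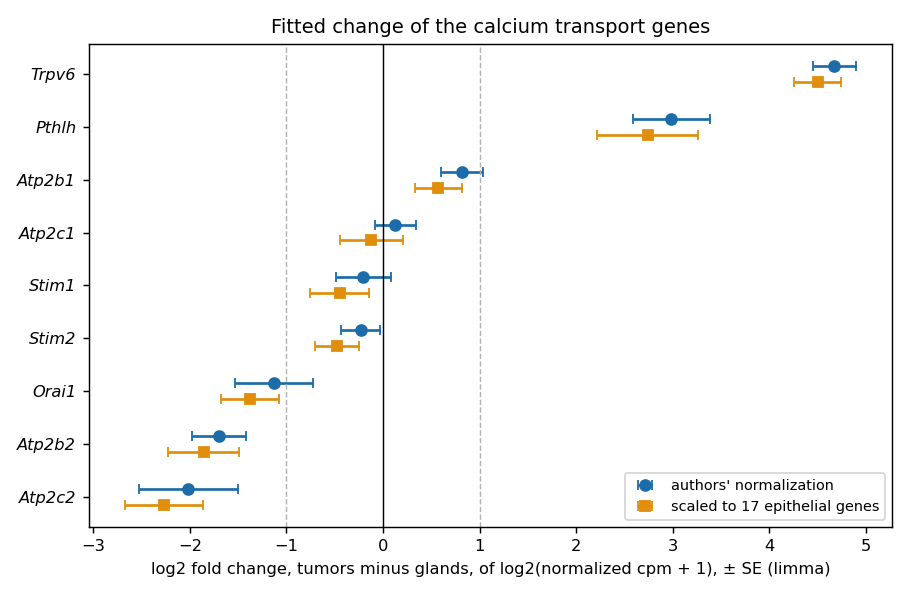
Fitted log2 fold change of tumors minus glands with its standard error for each of the 9 genes, from limma on log2(normalized cpm + 1). Circles use the authors' normalization and squares a scaling to 17 epithelial genes, and dashed lines mark a 2-fold change. The Trpv6 change is 4.67 with the first and 4.50 with the second.

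The channel gene Trpv6 (chr6:41620619-41636405 on the minus strand, mm10) held the largest change of the list. Its level was 38.4 in the lowest tumor, 52.2 at the median and 87.3 in the highest. The glands stood at 1.28, 1.45 and 1.10. No tumor came near the gland levels, and the lowest tumor was tumor 2 and the highest tumor 4. The means of 58.8 ± 16.2 and 1.28 ± 0.174 (SD, n = 10 and 3) gave a ratio of 46.1 and a fitted log2 fold change of 4.67 ± 0.22 (SE). These levels rest on 6540 reads in the tumors and on 67 reads in the glands, of which gland 3 gave 9. In bulk tissue, fewer cells that transcribe a gene and less RNA per cell cannot be told apart, which holds for each gene below.

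The promoter windows of Trpv6 and of Orai1 are shown because, among the 8 listed genes with an entry in the RefSeq promoter table, they were the ones that hold TTCNNNGAA, the letters to which STAT proteins, such as the prolactin-responsive STAT5, are known to bind. Each window runs from 250 bases before to 50 bases after the annotated start in GRCm38.p6 and is written 5′ to 3′ on the strand of the gene, chr6:41636356-41636655 on the minus strand for Trpv6 and chr5:123014824-123015123 on the plus strand for Orai1. Capitals mark TTCNNNGAA, which reads the same on both strands, and AGGTCA or its reverse complement, a core site of nuclear receptors.
Trpv6: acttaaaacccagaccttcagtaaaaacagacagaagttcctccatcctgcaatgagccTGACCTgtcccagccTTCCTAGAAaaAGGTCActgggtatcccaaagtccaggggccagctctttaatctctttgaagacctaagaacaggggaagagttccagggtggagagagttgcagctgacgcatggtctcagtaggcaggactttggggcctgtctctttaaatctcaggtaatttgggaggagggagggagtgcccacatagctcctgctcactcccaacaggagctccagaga
Orai1: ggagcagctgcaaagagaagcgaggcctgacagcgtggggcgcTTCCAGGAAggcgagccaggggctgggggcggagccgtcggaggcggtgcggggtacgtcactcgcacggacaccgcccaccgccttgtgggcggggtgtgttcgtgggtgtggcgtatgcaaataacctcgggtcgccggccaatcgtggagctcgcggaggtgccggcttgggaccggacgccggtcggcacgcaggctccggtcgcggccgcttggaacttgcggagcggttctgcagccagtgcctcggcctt
TTCNNNGAA starts 176 bases before the start of Trpv6, and AGGTCA or its complement starts 191 and 165 bases before it, without overlap between the motifs. In Orai1 the match starts 207 bases before the annotated start. Of 32851 RefSeq promoters of this length, 8.3% hold TTCNNNGAA, 16.3% hold AGGTCA and 1.46% hold both. The windows of Stim1, Stim2, Atp2b1, Atp2b2, Atp2c1 and Pthlh hold neither motif. A match describes letters only, and Trpv6 and Orai1 differed in opposite directions between tumors and glands.

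Within its family, Trpv6 was not the single channel with higher levels. Trpv4, a channel that responds to cell swelling and warmth, rose by 1.28 on the log2 scale with an adjusted p of 0.000638 in the limma fit of all listed genes, since the glands did not exceed the filter. Trpv3, a warmth-activated channel of keratinocytes that the filter left out, rose by 2.23 with an adjusted p of 0.000101 in the limma fit of all listed genes, and was named after its values were seen. Per kilobase of exon, the mean tumor levels were 14.9 for Trpv6, 2.85 for Trpv4, 1.23 for Trpv2 and 0.912 for Trpv3. In the glands the mean levels per kilobase were 0.324 for Trpv6, 1.00 for Trpv4, 2.10 for Trpv2 and 0.0440 for Trpv3. By these means the order of the channels ran from Trpv6 down to Trpv3 in the tumors and from Trpv2 down in the glands. The tumor ranges of Trpv4, Trpv2 and Trpv3 overlapped, at 1.69 to 4.63, 0.496 to 2.33 and 0.421 to 2.23. In the glands those of Trpv2 and Trpv4 did, at 0.852 to 3.30 and 0.872 to 1.17.

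The store-operated channel gene Orai1 (chr5:123015074-123030452) was at 12.5 in tumor 9, 29.3 at the median and 78.0 in tumor 6. The glands were at 74.1, 92.4 and 39.1. Tumor 6 lay within the gland range and the other 9 tumors lay below every gland. The fitted log2 fold change was -1.13 ± 0.40 (SE), which did not pass the threshold. It passed in 10 of 26 alternatives, among them the fit of all listed genes, scaling to the epithelial genes, with -1.37, leaving out tumor 6, with -1.28, and leaving out gland 3, with -1.48. Of the Orai family per kilobase, Orai1 made up 39.3% ± 11.3 in the tumors and 57.4% ± 13.1 in the glands (SD), with 6 of 10 tumors below all glands. Orai3 was at 17.5 ± 1.85 per kilobase in the tumors and 17.1 ± 1.25 in the glands.

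The sensor genes overlapped between the groups. Stim1 was at 17.2 to 42.5 in the tumors and at 42.4, 24.2 and 28.3 in the glands, a fitted log2 fold change of -0.20 ± 0.28. Stim2 was at 27.6 to 47.6 in the tumors and at 53.8, 60.1 and 31.1 in the glands, a fitted log2 fold change of -0.23 ± 0.20. Without the normalization factors both changes had the opposite sign, 0.11 for Stim1 and 0.09 for Stim2, and without gland 1 that of Stim1 was 0.02. Stim1 made up 25.3% ± 5.22 of the reads per kilobase of the pair in the tumors and 25.2% ± 7.61 in the glands (SD).

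Among the plasma membrane pumps, Atp2b1 and Atp2b2 differed in opposite directions. Atp2b1 (chr10:98914630-99026143) was at 85.4 in tumor 10, 125 at the median and 161 in tumor 4. The glands were at 85.9, 86.1 and 47.8. Only tumor 10 fell within the gland range, and the fitted log2 fold change was 0.82 ± 0.22, below 2-fold. It reached 1.14 and passed the threshold without the normalization factors, and was 0.57 with the epithelial scaling and 0.54 without gland 3.

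Atp2b2 (chr6:113743831-114042613 on the minus strand), the pump of the apical membrane, was at 0 in tumors 3 and 7, 0.178 at the median and 1.59 in tumor 9. The glands stood at 2.53, 2.74 and 4.75. The tumor values came from 27 reads in all, with 3 reads or fewer in 7 tumors, and the gland values from 151 reads. The value of 3 reads was between 0.141 and 0.683 in the tumors. All tumors lay below all glands, with a gland to tumor ratio of the means of 9.07, or 14.4 without tumor 9, and a fitted log2 fold change of -1.70 ± 0.28 in the fit of all listed genes, since the filter leaves Atp2b2 out. The added 1 sets the size of this value at such low levels, and the change was -3.42 with a pseudocount of 0.1 and -3.39 in edgeR on recovered reads. Of the Atp2b family per kilobase, in which Atp2b1, Atp2b2 and Atp2b4 were listed, Atp2b2 made up 0.318% ± 0.387 in the tumors and 4.58% ± 3.31 in the glands (SD), with 2.51%, 2.84% and 8.39% in the 3 glands. In the glands its mean per kilobase was 0.265 ± 0.0975, and its range overlapped that of Trpv6, which lay above it in 2 of 3 glands.

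The Golgi pump genes differed in their balance between tumors and glands. Atp2c2 (chr8:119700009-119757718) was at 9.79 in tumor 9, 31.7 at the median and 96.4 in tumor 6. The glands were at 152, 209 and 76.2. Tumor 6 overlapped the lowest gland and the other 9 tumors lay below every gland, and the fitted log2 fold change was -2.02 ± 0.51. Without gland 2 it was -1.70 and no longer passed the threshold.

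Atp2c1 was at 164 in the lowest tumor, 208 at the median and 336 in tumor 9. The glands were at 152, 242 and 209, within the tumor range apart from gland 1. Its fitted log2 fold change of 0.13 ± 0.21 turned to -0.12 with scaling to the epithelial genes and to -0.06 without gland 1. The exons of Atp2c1 overlap those of Aste1 on the opposite strand by 1837 bases, and 17.0% of its 75-base windows also occur in Aste1, so that reads of the 2 genes may be mixed. Per kilobase, Atp2c2 made up 66.5% ± 12.4 of the pair in the glands and 33.1% ± 15.1 in the tumors (SD). The Atp2c2 share was 75.1%, 72.2% and 52.3% in the 3 glands. Tumor 6 (60.0%) overlapped the gland range, tumor 2 (52.3%) came next and the lowest was tumor 9 (8.05%).

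**Figure D3:**
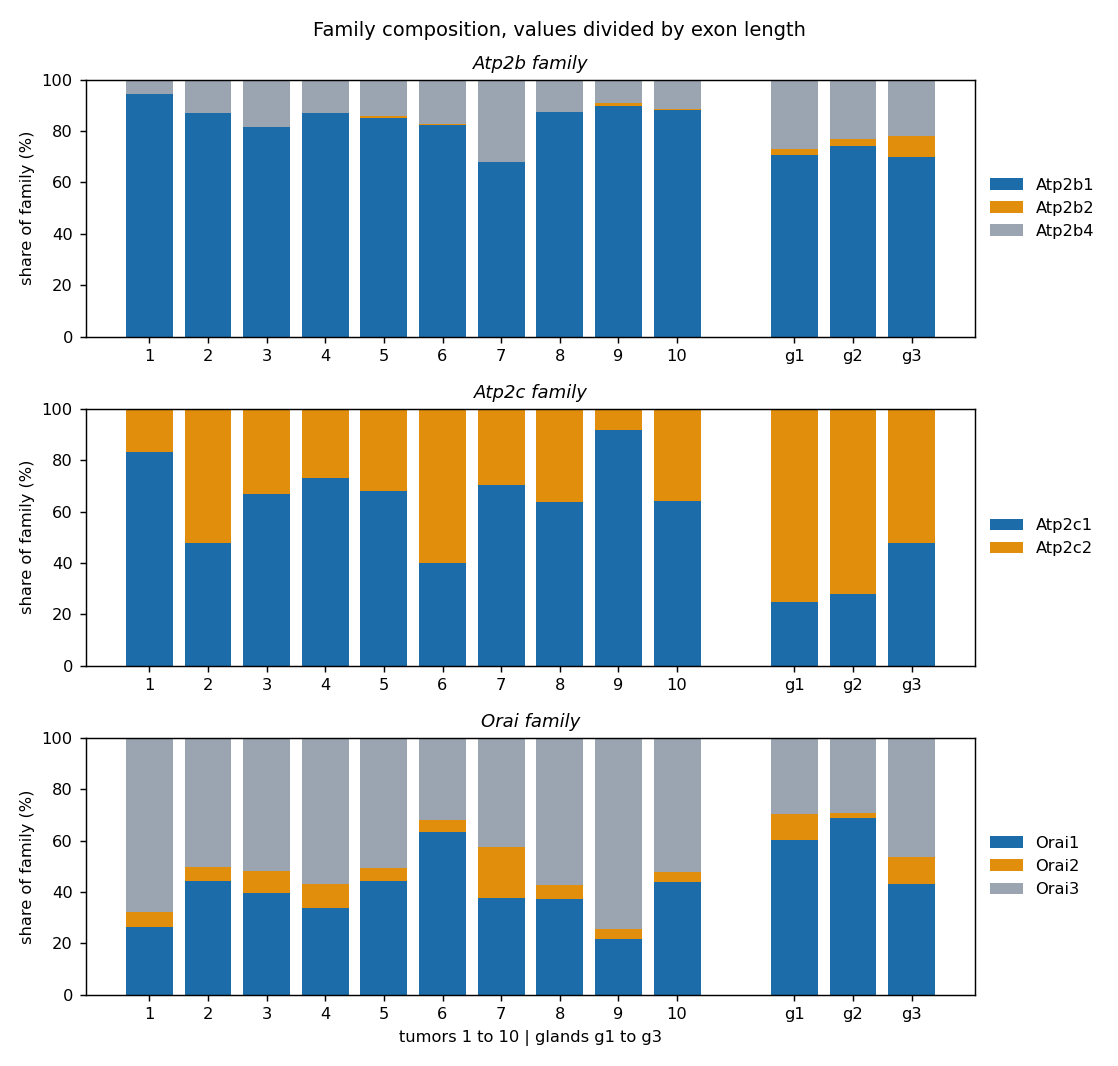
Composition of the plasma membrane pump, Golgi pump and Orai families in each library, as the percentage of the family's normalized cpm per kilobase of exon. The Atp2c2 share is between 52.3% and 75.1% in the glands and between 8.05% and 60.0% in the tumors.

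Pthlh (chr6:147252109-147264013 on the minus strand) was at 14.2 in the lowest tumor, 23.5 at the median and 71.0 in tumor 9. The glands were at 2.01, 1.08 and 4.14. Every tumor lay above every gland, and without tumor 9 the remaining tumors were between 14.2 and 31.7. The means of 27.2 ± 16.7 and 2.41 ± 1.57 (SD) gave a ratio of 11.3, which was 17.6 without gland 3 and 9.25 without tumor 9. The fitted log2 fold change was 2.98 ± 0.40, and leaving out 1 library gave 2.68 (gland 2) to 3.33 (gland 3). Pth1r, which encodes the receptor of this hormone, was named after its values were seen and was lower by a log2 fold change of -2.66, with an adjusted p of 4.51e-05 in the limma fit of all listed genes.

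Ranked by the mean level per kilobase, the tumors ran from Atp2c1 (22.7) over Pthlh (16.8), Trpv6 (14.9), Orai1 (14.1), Atp2c2 (12.0), Atp2b1 (8.37), Stim2 (7.77) and Stim1 (2.69) to Atp2b2 (0.0292). Neighbours from Atp2c1 down to Stim2 overlapped in their ranges. Pthlh lay above Trpv6 in 5 of 10 tumors, and Trpv6 lay above Orai1 in 6 of 10. The glands ran from Atp2c2 (45.2) over Orai1 (29.9), Atp2c1 (20.7), Stim2 (9.42), Atp2b1 (4.81), Stim1 (3.05), Pthlh (1.49) and Trpv6 (0.324) to Atp2b2 (0.265). Here the ranges of Atp2c1 and Stim2, of Stim2 and Atp2b1, and of Pthlh and Trpv6 did not overlap. By these means, Trpv6 and Pthlh stood near the end of the order in the glands and directly behind Atp2c1 in the tumors. The place of Pthlh rests in part on tumor 9, without which its tumor mean was 22.3 normalized cpm in place of 27.2.

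The glands held high levels of milk transcripts, which belong beside the genes of milk calcium. Csn2, which encodes beta-casein, was at 56894, 63624 and 59019 in the glands and between 85.1 and 21978 in the tumors. The milk score, the mean log2 level of 10 milk genes, was 11.9 to 12.9 in the glands and 4.89 to 10.7 in the tumors. It was highest in tumor 6, the tumor with the highest Orai1 and Atp2c2, and lowest in tumor 9, with the lowest of both. Adipocyte scores were 7.96 to 8.92 in the glands and 1.81 to 4.79 in the tumors, endothelial scores 4.83 to 6.05 and 2.95 to 4.02. Basal and squamous scores were 2.42 to 2.70 in the glands and 5.72 to 8.12 in the tumors, with Krt6a, Krt1, Sprr1a and Ivl at 3 reads or fewer in every gland. Macrophage scores overlapped, at 4.22 to 4.28 and 3.82 to 4.86, and lymphocyte scores were 1.62 to 5.84 in the glands and 0.899 to 3.45 in the tumors. The part of these cell types in the differences of the calcium genes was not tested. The secretory state of the glands, whose reproductive stage was not given, cannot be told apart from the difference between tumors and glands.

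The levels of Orai1 and Atp2c2 varied together among the tumors, with a Pearson r of 0.94 over the 10 tumors, which include tumors of the same mouse. Over the means of the 6 mice, the relation of Atp2c2 with the milk score had r = 0.80 (exact permutation test over pairings, two-sided, p = 0.0625, adjusted p = 0.525) and Spearman's rho = 0.60 (exact permutation p = 0.242, adjusted p = 0.486). For Orai1, r was 0.76 (exact permutation p = 0.0875, adjusted p = 0.525) and rho 0.49 (exact permutation p = 0.356, adjusted p = 0.492). Without the 2 mice farthest from the median milk score, r was 0.68 for Atp2c2, 0.62 for Orai1 and -0.068 for Trpv6. Without the mouse of tumors 5 and 6, r was 0.47 for Atp2c2, 0.25 for Orai1 and -0.31 for Trpv6, so that the relations rest in part on that mouse. Trpv6 had r = -0.57 with the milk score (exact permutation p = 0.236, adjusted p = 0.553). None of the 18 relations, of 9 genes with the milk score and with the basal and squamous score, passed an adjusted p of 0.05, where the smallest p that 6 mice allow is 0.00278. Unadjusted, 0 Pearson and 1 Spearman relation had p under 0.05. The smallest Pearson p, 0.0528 by the exact permutation test, was that of Atp2c1 with the basal and squamous score, at r = -0.73.

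**Figure D4:**
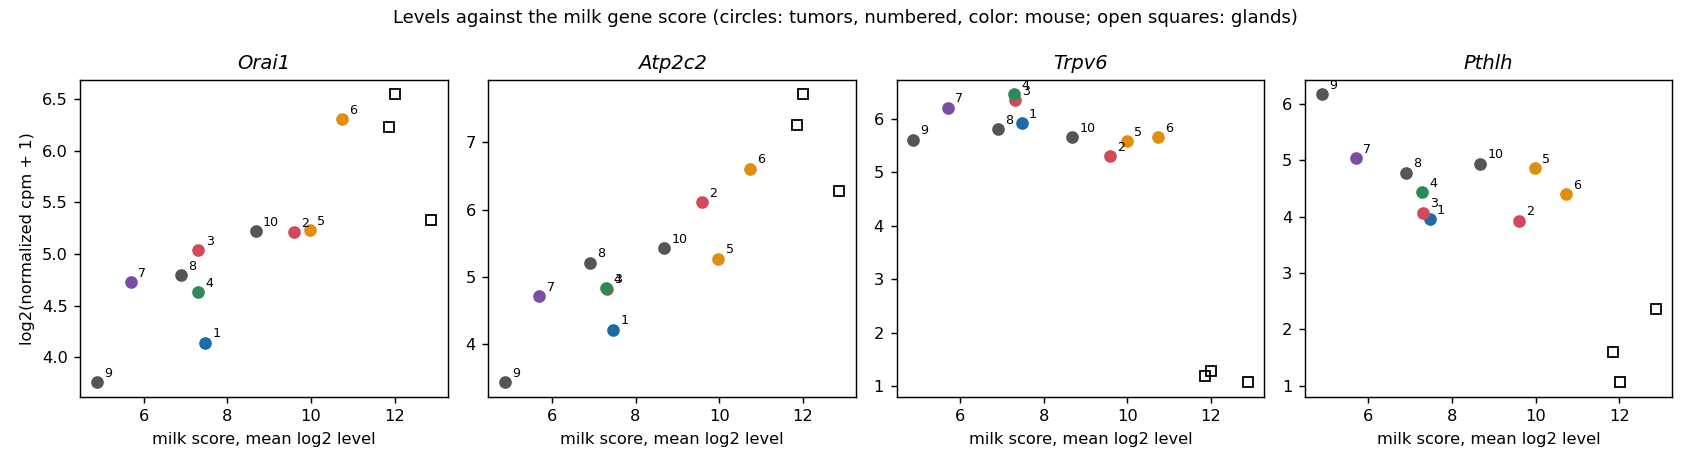
Levels of Orai1, Atp2c2, Trpv6 and Pthlh, as log2(normalized cpm + 1), against the milk score of each library. Circles are tumors, numbered and colored by mouse, and open squares are glands. Tumor 6 has the highest milk score of the tumors, 10.7, and the highest Orai1 and Atp2c2, and tumor 9 the lowest score, 4.89.

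Tumors of the same mouse were not closer to each other for every gene. The median absolute log2 difference of Trpv6 was 0.148 over the 5 pairs of tumors from the same mouse and 0.420 over the 40 pairs from different mice. For Atp2c2 it was 1.34 within and 0.815 between mice, and for Orai1 1.04 and 0.590. In the mouse with tumors 5 and 6, Orai1 was at 36.6 and 78.0 and Trpv6 at 46.9 and 49.4. In the mouse with tumors 2 and 3, Trpv6 was at 38.4 and 80.9.

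Over the 10 tumors, the genes whose log2 levels followed Trpv6 most closely, among 11794 genes past the filter, were Sox9 (r = 0.98), Msrb3 (0.92), Kcnh1 (0.89), Srpk2 (0.89) and Zc3hav1l (0.88). Sox9, a transcription factor of epithelial progenitors, was at 67.5 to 129 in the tumors and 79.7 to 191 in the glands, so that its range overlapped between the groups where that of Trpv6 did not. Of the list itself, Stim1 (0.82) and Atp2b1 (0.73) had the highest r with Trpv6. For Atp2b2, whose tumor values rest on 27 reads, the highest r were those of Plekha3 (0.92), Sec24d (0.92), Atf3 (0.92), Tbc1d7 (0.91) and Wac (0.91). These values describe 10 libraries of 6 mice that share differences in depth and composition.

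The other genes of calcium handling were taken from 8 lists with 116 genes, of which 92 were listed and 70 passed the filter. Of these 70 genes, 18 (25.7%) were past the threshold, 9 higher and 9 lower, beside 17.2% of all tested genes. Without the filter 23 of the 92 (25.0%) were past it, 10 higher and 13 lower, beside 20.6% of all listed genes. Of the 9 higher genes, 7 passed the filter only through the tumors (Trpv4, Trpm6, Cacna1h, Tmem178, S100g, Casq2 and Tnfrsf11b), and these 7 were past the threshold in the fit of all listed genes. Over the 92 listed genes the log2 fold change had a median of -0.12, beside 0.01 over all listed genes. Without gland 1, gland 2 or gland 3 the count was 13, 13 and 22, while that of all genes moved from 2029 to 1661, 1881 and 2660.

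Genes that rose came from several lists. S100g encodes calbindin-D9k, the cytosolic calcium carrier that works with TRPV6 in the intestine, and had 0 reads in all 3 glands, where 3 reads are worth up to 0.366. Its level in the tumors was 3.49 in tumor 6, 16.4 at the median and 129.5 in tumor 9, an at least 88.9-fold higher mean than the highest gland floor, with an adjusted p of 0.000887 in the limma fit of all listed genes. All tumors thus held a transcript that was not detected in the glands at this depth. The correlation of S100g with Trpv6 over the 10 tumors was r = -0.20.

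Of the other plasma membrane channels, 3 of the 13 genes past the filter rose, beside 10.2% of all genes past the filter. Besides Trpv4 these were Cacna1h and Trpm6. Of all 20 listed channels, 4 rose and 1 fell in the fit without the filter, beside 10.5% and 10.1% of all listed genes. Cacna1h, a T-type voltage-gated channel, was at 8.39 to 34.5 in the tumors and 0.244 to 0.685 in the glands, with a log2 fold change of 3.42 ± 0.34 and an adjusted p of 3.71e-06 in the limma fit of all listed genes. Trpm6, a magnesium and calcium channel of absorbing epithelia, was at 6.97 to 22.3 and 0.257 to 0.488, with a ratio of the means of 35.0 and a log2 fold change of 3.24 ± 0.27, which the added 1 makes smaller, since edgeR on recovered reads gave 5.18. Of the store-operated entry partners, 1 of 8 rose and 1 fell, beside 10.2% and 6.99% of all genes past the filter. Tmem178 was at 6.52 to 23.3 in the tumors, an at least 41.2-fold higher mean than the highest gland floor, with 4 reads in the glands together. Esyt1, an extended synaptotagmin of membrane contact sites, fell by 1.25 on the log2 scale.

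Of the other pumps and exchangers, 2 of the 6 genes past the filter fell, beside 6.99% of all genes past the filter. Of all 10 listed, 3 fell in the fit without the filter, beside 10.1% of all listed genes. Atp2a3, which encodes the endoplasmic reticulum pump SERCA3, was at 2.93 to 10.6 in the tumors and at 98.8, 14.0 and 53.9 in the glands, with a log2 fold change of -2.78 ± 0.44 and an adjusted p of 0.000244 in limma. Leaving out 1 library gave -3.54 to -2.18 for Atp2a3, which kept its direction and side of the threshold in 25 of 26 alternatives. Gland 2, with the lowest Atp2a3 of the glands, was also the gland with the lowest lymphocyte score, 1.62. Tmem165, a Golgi calcium and manganese transporter of the lactating gland, was at 69.5 to 172 in the tumors and 191 to 294 in the glands, with a log2 fold change of -1.08 ± 0.26. None of the 7 intracellular release channels past the filter was past the threshold in limma, beside 17.2% of all genes past the filter. None was past it in edgeR or DESeq2 on recovered reads. An unadjusted p under 0.05 was found for 4 of them in edgeR, for 4 in DESeq2 and for 3 in limma. Of the 3 in limma, Itpr1 (log2 fold change -0.76) and Tpcn2 (0.93) had an adjusted p of 0.0202 and 0.000315 in limma and missed the 2-fold limit. The third, Itpr2 (-0.66), had an adjusted p of 0.0682 in limma. Of 6 genes of mitochondrial uptake, Mcur1 fell by 1.43 on the log2 scale.

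Of 15 calcium-binding proteins past the filter, 3 rose and 2 fell, beside 10.2% and 6.99% of all genes past the filter. Casq2, a calcium store protein of muscle, rose by 1.73 and Nucb2, a Golgi calcium-binding protein, fell by 2.47 on the log2 scale, with adjusted p of 6.11e-05 and 0.000169 in the limma fit of all listed genes. Rcn3, a reticulocalbin of the secretory pathway, fell by 1.45. Of 6 genes of the calcium hormone axis that passed the filter, 1 rose and 2 fell, where 17.2% of all genes past the filter were called. Of all 8 listed genes, 1 rose and 4 fell in the fit without the filter, where 20.6% of all genes were called. The 2 added genes were Pth1r and Tnfsf11, which encodes RANKL and was named after its values were seen. Tnfrsf11b, which encodes osteoprotegerin, a decoy that binds RANKL, was at 8.68 to 75.6 in the tumors and 1.58 to 4.63 in the glands, with a log2 fold change of 2.99 ± 0.52. Tnfrsf11a, the receptor RANK, fell by 1.66 and Stc1, which encodes stanniocalcin-1, fell by 1.25 on the log2 scale. Of 12 genes past the filter whose proteins bind TRPV6, 1 rose and 1 fell, beside 10.2% and 6.99% of all genes past the filter. Anxa2 rose by 1.84 and Slc9a3r2 fell by 1.15. Without gland 1, Esyt1 was at -0.89, and Tnfrsf11a, Stc1 and Slc9a3r2 at -1.48, -1.15 and -0.99, and none of these passed the threshold. The last 3 also missed it without gland 2, with Stc1 at -1.07, as did Rcn3 at -1.23, and Tmem165 missed it without gland 3, at -0.93, and without tumor 3. Anxa2 encodes an annexin that carries the channel to the membrane, and stood at 401 to 749 in the tumors and 114 to 160 in the glands.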

How the data were processed

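The deposited table holds signal values, which the authors obtained by mapping paired-end reads of 75 bases to mm10 with Rsubread, counting them per gene with featureCounts and normalizing with edgeR. The strand setting is not given in the sources used here. Each value was a whole multiple of the worth of 1 read in its library (100% of values within 0.01 of a whole number), so that reads were recovered, and 3 reads, the limit that a count of 0 allows at 95% confidence, served as floor. Floors cover counting error only.

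The members and lists were chosen with earlier results of these data known. The main test was limma with a variance trend on log2(normalized cpm + 1) over all 13 libraries, without the 3418 of 15213 genes that did not exceed 5 normalized cpm in most libraries, with Benjamini-Hochberg adjustment. Standard errors are those of limma. Tumors of the same mouse entered as separate samples, and the alternatives include fits by mouse. Fits of recovered reads with edgeR and DESeq2, plain cpm, a scaling to 17 epithelial genes, another pseudocount of 0.1, other filters and fits without libraries were the alternatives. Named genes were all listed members, in each wider list the 2 genes that rose most and the 2 that fell most past the threshold, the 2 highest genes of each marker list, the 5 genes most like Trpv6 and Atp2b2 over the tumors, Tsg101, S100g, Tmem165 and Rn45s. Trpv2, Trpv3, Trpv4, Orai3, Pth1r, Tnfsf11, Itpr1, Itpr2 and Tpcn2, family members or genes behind a count, lie outside this rule and were named after their values were seen. Atp2b4, as part of the Atp2b family share, and Krt6a, Krt1, Sprr1a and Ivl, as markers at the floor in every gland, also lie outside it. Loci and promoters are those of RefSeq for GRCm38.p6, joined by Entrez ID for 15106 genes. Exon lengths, found for 14246 genes, exon overlaps and the sequence windows shared between genes are those of GENCODE. R 4.3.3, limma 3.58.1, edgeR 4.0.16 and DESeq2 1.42.0 were used.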

Additional observations from a re-analysis of the deposited data

Results flagged for a closer look

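Of 36 genes and scores looked at over the 10 tumors, 8 had a tumor whose gap to its nearest neighbour was large for the range of the group. Chance gives about 1 in 20 such cases where values are normally distributed, and the 6 genes were compared as normalized cpm, which are skewed. As log2(normalized cpm + 1), 1 of these 6 genes, Pthlh, still met the limit. Orai1 was at 78.0 in tumor 6, against 12.5 to 36.6 in the others. In the same tumor Nucb2 was at 42.5, against 6.60 to 23.2. In tumor 9, Pthlh was at 71.0 against 14.2 to 31.7, Atp2b2 at 1.59 against 0 to 0.798, and S100g at 129.5 against 3.49 to 54.4. Tumor 9 is the library with the highest Rn45s share, 27.4%. Cacna1h was at 34.5 in tumor 8, against 8.39 to 22.2. The basal and squamous score was 8.12 in tumor 7, against 5.72 to 6.89, and the lymphocyte score 3.45 in tumor 1, against 0.899 to 1.69.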

How the results depend on the processing

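Trpv6, Pthlh and Atp2b2 kept their direction and their side of the threshold in all 26 alternatives fixed for them, with log2 fold changes of 4.50 to 5.51, 2.31 to 3.55 and -3.93 to -1.47. Atp2c2 kept them in 24 of 26. The median log2 fold change of tested genes was 0.01 with the authors' normalization, -0.23 with the epithelial scaling and 0.33 with plain cpm.

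Without the filter, 3141 genes were past the threshold, 1538 of them lower. Plain cpm gave 1864 higher and 495 lower genes, and the epithelial scaling 1299 lower. Plain cpm turned Stim1 to 0.11 and Stim2 to 0.085, the epithelial scaling turned Atp2c1 to -0.12, and leaving out gland 1 turned Stim1 to 0.021 and Atp2c1 to -0.058 (ranges without 1 library -0.37 to 0.021 and -0.058 to 0.27). Reads not divided by length gave Atp2c2 shares of 15.2% in the tumors and 41.0% in the glands. Plain cpm turned the correlation of Atp2c1 with the milk score to -0.040. Plain cpm also took Esyt1, Tmem165, Rcn3, Stc1 and Slc9a3r2 off the threshold, with log2 fold changes of -0.93, -0.75, -1.13, -0.95 and -0.83. The causes were not tested.

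Leaving out 1 library gave 1661 to 2660 genes past the threshold, 1003 to 1537 higher and 658 to 1123 lower, 3 to 5 members and 13 to 22 genes of the wider lists. Members were counted here in the filtered fit, with Atp2b2 taken from the fit of all listed genes, which gave 4 with all libraries. Some correlations over mice changed sign when 1 mouse was left out, with ranges of -0.44 to 0.22 for Atp2c1 with the milk score, -0.030 to 0.76 for Trpv6 with the basal and squamous score, -0.26 to 0.59 for Orai1 with the basal and squamous score, -0.60 to 0.046 for Atp2b2 with the basal and squamous score and -0.38 to 0.67 for Atp2c2 with the basal and squamous score.

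The labels number the tumors and the glands separately from 1, without saying that a number marks a shared origin. Tumors and glands came from different mice, so that a number does not mark a shared animal. The deviations of same-numbered libraries correlated at -0.579, 0.0447 and -0.664, and those of differently numbered ones at -0.534 to 0.674. Deviations of the glands from their own mean balance out, so these values cannot decide whether numbers pair the samples in another way. With the replicate number as a block over tumors 1 to 3 and glands 1 to 3, 799 genes were past the threshold, 388 higher and 411 lower, and 10 genes of the wider lists. The same 6 libraries without the block, added after the data were seen, gave 1632 genes, 762 higher and 870 lower, and 16 genes of the wider lists. Atp2c2 was no longer past the threshold in either fit of these 6 libraries, with a log2 fold change of -2.03. Leaving out tumors 4, 9 and 10 together, also added after the data were seen, gave 1895 genes past the threshold and the same 4 members. These were Trpv6, Pthlh and Atp2c2 in the filtered fit and Atp2b2 in the fit of all listed genes. Depth limits the values that rest on few reads, such as Atp2b2 with 27 reads in the tumors.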
